A study of Mus musculus with 12 samples.

Results

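Glycogen metabolism in mouse CD8 T cells with and without the deubiquitinase Otub1 is described here through 7 genes out of the 23420 listed in the count tables. Ppp1r3b encodes a subunit that brings protein phosphatase 1 to glycogen. Gys1, Gbe1, Gyg and Ugp2 encode enzymes of glycogen synthesis, and Pygb and Pygl encode enzymes of its breakdown. The 7 were chosen with measured values in view, and the contrast is not stated. Ppp1r3b was taken as chosen by its fold change in stimulated knockout over stimulated wild type cells, for which it stood out in earlier results of these data, with the 6 others listed as enzymes of the same pathway. For all 7 genes that comparison, and the difference of the genotype effects that contains it, are given as descriptions with no test. For Ppp1r3b the changes with stimulation are descriptions too, since they hold the same libraries.

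There were 4 groups of 3 libraries. The stimulated KO group held naive splenic CD8 T cells of OTUB1-CD4Cre-OT-I mice after 24 h with plate-bound anti-CD3 and anti-CD28 at 1 µg/ml each, antibodies that stand in for antigen and costimulation. The stimulated WT group held wild type OT-I cells treated in the same way. The fresh KO and fresh WT groups held cells of the same genotypes that the labels call untreated. All mice were on the C57BL/6 background, were 6 to 8 weeks old and carried OT-I, a transgenic T cell receptor for an ovalbumin peptide. CD4Cre is a recombinase that acts from the thymic stage at which T cells express CD4, so deletion falls in cells with that history. The genotype tag reads OTUB1-DKO, and its D is not explained. The untreated cells were assumed to come straight from the spleen, so the effect of stimulation includes that of a day in culture.

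Otub1 itself checked the labels. It stood at 16.2, 13.8 and 14.5 CPM (counts of a gene per 1000000 gene counts of its library) in stimulated KO libraries, against 85.7, 100.1 and 96.1 CPM in stimulated WT libraries. In fresh cells Otub1 stood at 25.4, 28.8 and 28.6 CPM in KO libraries, against 72.6, 70.8 and 45.1 CPM in WT libraries. The groups did not overlap in either state. Library sizes ran from 15064488 to 25920035 gene counts, and 14482 to 15384 genes had a count. The design text speaks of CD8 T cells, but 1 tag calls the cells splenic DCs (dendritic cells). The 5 CD8 T cell markers found in the tables (Cd8a, Cd8b1, Cd3e, Cd3g and Lck) summed to 1330 to 1509 CPM in stimulated KO, 1636 to 1763 in stimulated WT, 4586 to 4800 in fresh KO and 4461 to 4669 in fresh WT libraries. The 6 dendritic cell markers summed to 11.8 to 13.47, 8.72 to 10.4, 84.0 to 119.9 and 91.5 to 126.6 CPM in the same 4 groups. In 3 libraries (stimulated KO replicate 3, fresh KO replicate 2 and fresh WT replicate 3) there were Y-linked reads, at least 5958 counts against at most 10 in the others. No label ties a replicate to an animal, so the tests rest on differences among libraries that may in part be technical.

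Glycogen is a branched polymer of glucose that a cell can store and later burn. Ugp2 makes the activated sugar UDP-glucose, glycogenin (Gyg) starts the chain on itself, glycogen synthase (Gys1 in most tissues, Gys2 in liver) lengthens it, and the branching enzyme (Gbe1) adds branch points. Glycogen phosphorylase, in brain (Pygb), liver (Pygl) and muscle (Pygm) forms, releases glucose units again. Synthase is switched off and phosphorylase switched on by phosphorylation. Protein phosphatase 1 reverses both steps when a targeting subunit of the Ppp1r3 family, such as Ppp1r3b, holds it on glycogen. Ppp1r3b is best known from liver, and in CD8 T cells glycogen has been described in memory cells.

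The stretch just before the start of a gene is where the general transcription machinery assembles. It is shown for Gys1, Gyg and Pygl, whose levels moved furthest with stimulation among the 6 members other than Ppp1r3b, as the 250 bases upstream of the RefSeq start in the GRCm38.p6 build. Capitals mark the CCAAT box (letters CCAAT) and the core of the hypoxia response element (ACGTG and its variant GCGTG), on either strand. Overlapping matches were counted. The windows are chr7:45434589-45434838 on the plus strand for Gys1, chr3:20155117-20155366 on the minus strand for Gyg and chr12:70227684-70227933 on the minus strand for Pygl. The GENCODE M21 annotation places some gene starts elsewhere. There Pygl begins at 70231488, so its window lies wholly inside the gene. Gyg begins at 20155317, so most of its window lies inside the gene. Only the Gys1 window lies wholly before the start in both annotations.
Gys1: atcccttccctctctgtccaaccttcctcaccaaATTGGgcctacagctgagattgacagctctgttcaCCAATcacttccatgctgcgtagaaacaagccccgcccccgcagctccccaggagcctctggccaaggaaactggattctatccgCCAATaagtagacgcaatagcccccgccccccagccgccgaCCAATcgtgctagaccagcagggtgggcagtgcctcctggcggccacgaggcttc
Gyg: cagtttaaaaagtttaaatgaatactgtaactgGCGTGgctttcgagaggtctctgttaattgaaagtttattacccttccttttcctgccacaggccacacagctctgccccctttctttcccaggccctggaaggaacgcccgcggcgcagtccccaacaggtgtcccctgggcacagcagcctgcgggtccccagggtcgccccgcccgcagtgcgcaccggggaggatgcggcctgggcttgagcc
Pygl: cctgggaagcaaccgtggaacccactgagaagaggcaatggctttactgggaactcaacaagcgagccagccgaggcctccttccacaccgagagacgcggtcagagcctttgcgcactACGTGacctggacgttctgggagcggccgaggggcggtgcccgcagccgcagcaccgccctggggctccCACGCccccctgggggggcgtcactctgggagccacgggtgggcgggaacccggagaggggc
The Gys1 window held the CCAAT box at 4 places and no hypoxia core. At least 1 CCAAT box was found in 33.8% of the 32851 promoter windows of the same length, and 4 or more in 0.84%. The limit of 4 was set to the number in the Gys1 window, so nothing is read from that share. The Gyg window held 1 hypoxia core (GCGTG) and the Pygl window held 1 of each kind. A hypoxia core of either kind was found in 38.6% of all windows. A match describes letters and is not a site of binding.

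Ppp1r3b lies at chr8:35375739-35388139 on the plus strand (GENCODE M21, GRCm38). It was high only in stimulated KO libraries, as the plot of levels by library shows. In stimulated cells it stood at 10.8, 23.5 and 12.7 CPM in KO libraries, against 3.81, 4.77 and 3.03 CPM in WT libraries. The lowest stimulated KO library was at more than the highest stimulated WT library, and replicate 2 of stimulated KO stood apart from the others. Stimulated KO and stimulated WT libraries also did not overlap, in either direction, for 27.4% of all genes tested. The means were 15.6 ± 6.87 CPM in stimulated KO and 3.87 ± 0.869 CPM in stimulated WT (SD, n = 3 each), a log2 fold change of 2.01 (SE 0.25). These values rest on 278, 449 and 294 counts in stimulated KO libraries and on 76, 99 and 73 counts in stimulated WT libraries.

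In fresh cells Ppp1r3b stood at 5.61, 6.38 and 5.94 CPM in KO libraries, against 4.49, 4.31 and 5.33 CPM in WT libraries. The fresh groups did not overlap, which was also so for 20% of the 12759 genes tested. The difference did not pass the test: log2 fold change 0.35, SE 0.26, edgeR adjusted p = 0.601, with adjusted p from 0.258 to 0.785 over 12 alternatives. With stimulation the log2 fold change of Ppp1r3b was 1.37 (SE 0.24) in KO cells and -0.28 (SE 0.28) in WT cells. All stimulated KO libraries lay above all fresh KO libraries, while stimulated WT and fresh WT libraries overlapped. Of all genes tested, 84.6% had no overlap of stimulated and fresh libraries in KO cells, and 84.1% had none in WT cells. The order of the group means was stimulated KO, fresh KO (5.98 ± 0.387 CPM), fresh WT (4.71 ± 0.541 CPM) and stimulated WT. Of neighbours in that order, only fresh WT and stimulated WT overlapped in their libraries.

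The genotype effect on Ppp1r3b was larger in stimulated than in fresh cells by 1.66 on the log2 scale (SE 0.36), given as a description. Without stimulated KO replicate 2 that difference was 1.25, and the stimulated KO over stimulated WT value was 1.60. The value in stimulated cells stayed between 1.60 and 2.22 over 12 alternatives. In bulk samples, fewer cells of a type and less RNA per cell cannot be told apart, and CPM are shares of a library, so a level here says nothing about RNA per cell.

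**Figure D1:**
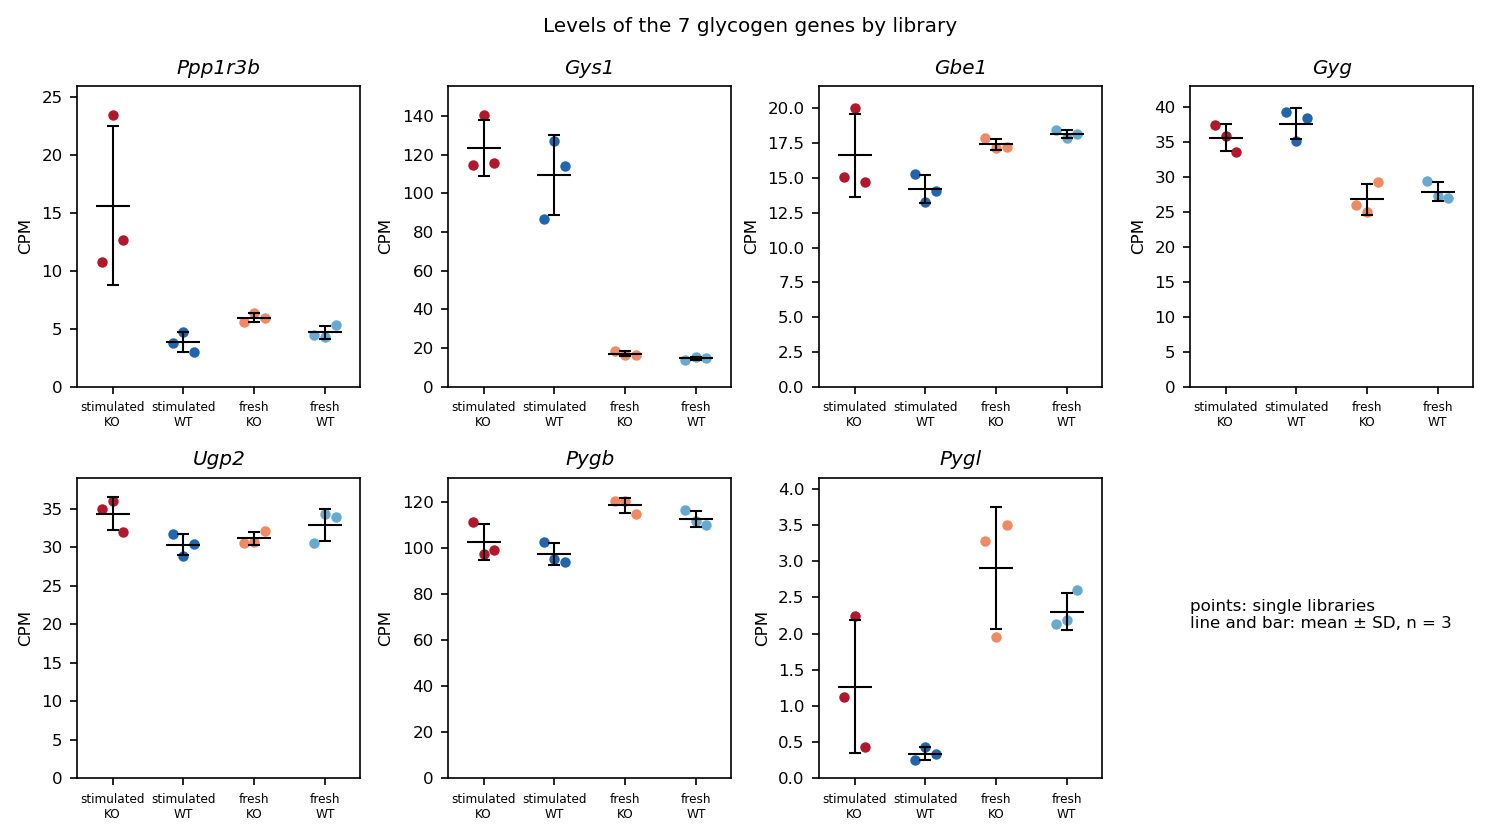
Levels of the 7 glycogen genes in CPM (vertical axes, each from 0) in stimulated KO, stimulated WT, fresh KO and fresh WT libraries. Points are libraries and bars are mean ± SD (n = 3). Ppp1r3b is highest in stimulated KO (15.6 ± 6.87 CPM), Gys1 is high in both stimulated groups, and Pygl is lowest in stimulated WT.

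Ppp1r3b has 6 relatives among the targeting subunits, and only 2 of them passed the filter on low counts. Ppp1r3a, the muscle form, had 0 counts among the 247411082 gene counts of the 12 libraries, which allows up to 0.0121 CPM (3 counts, for counting error only). Ppp1r3c, Ppp1r3d and Ppp1r3g had 2, 14 and 10 counts in all. Ppp1r3e and Ppp1r3f, the 2 that passed, moved with stimulation in opposite directions. Ppp1r3e stood at 10.9, 10.3 and 11.5 CPM in stimulated KO libraries, against 5.87, 6.88 and 6.04 CPM in fresh KO libraries. It stood at 11.3, 9.68 and 9.98 CPM in stimulated WT libraries, against 4.31, 5.18 and 5.86 CPM in fresh WT libraries. The stimulated and fresh groups did not overlap in either genotype, which was also so for 84.6% of all genes in KO and 84.1% in WT cells. Ppp1r3e rose by a log2 fold change of 0.80 in KO cells (SE 0.12, edgeR adjusted p = 9.96e-06) and 1.01 in WT cells (SE 0.12, edgeR adjusted p = 1.36e-06).

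Ppp1r3f stood at 2.44, 1.88 and 1.55 CPM in stimulated KO libraries, against 10.7, 10.1 and 10.1 CPM in fresh KO libraries. It stood at 2.30, 2.75 and 2.83 CPM in stimulated WT libraries, against 9.47, 10.8 and 10.7 CPM in fresh WT libraries. All stimulated libraries lay far below all fresh ones, though most genes had no overlap between these states, as given for Ppp1r3e. The log2 fold change was -2.38 in KO cells (SE 0.15, edgeR adjusted p = 2.92e-10) and -1.97 in WT cells (SE 0.14, edgeR adjusted p = 2.65e-09). For neither gene did KO over WT pass the test. In stimulated cells the log2 fold change was 0.09 for Ppp1r3e (edgeR adjusted p = 0.696) and -0.42 for Ppp1r3f (edgeR adjusted p = 0.137). In fresh cells edgeR adjusted p was 0.306 for Ppp1r3e (log2 fold change 0.30) and 0.993 for Ppp1r3f.

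Levels of different genes were set side by side only per kb of exon (GENCODE M21 basic annotation), as CPM per kb. On that scale Ppp1r3b made up 37.7% ± 10.8 of the summed level of the 7 targeting subunits in stimulated KO, 13.9% ± 3.07 in stimulated WT, 20.6% ± 0.539 in fresh KO and 18.6% ± 1.53 in fresh WT (SD, n = 3 each). In stimulated KO replicate 2 the share was 50.05%, and in the other two it was 29.9% and 33.2%. Ppp1r3e held 57.1% ± 9.99 in stimulated KO, 76.9% ± 3.39 in stimulated WT, 44.7% ± 1.84 in fresh KO and 41.6% ± 2.02 in fresh WT. Ppp1r3e thus had the highest mean of the family in every group, and Ppp1r3f was close to it in fresh cells alone, as the bars of both families show.

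**Figure D2:**
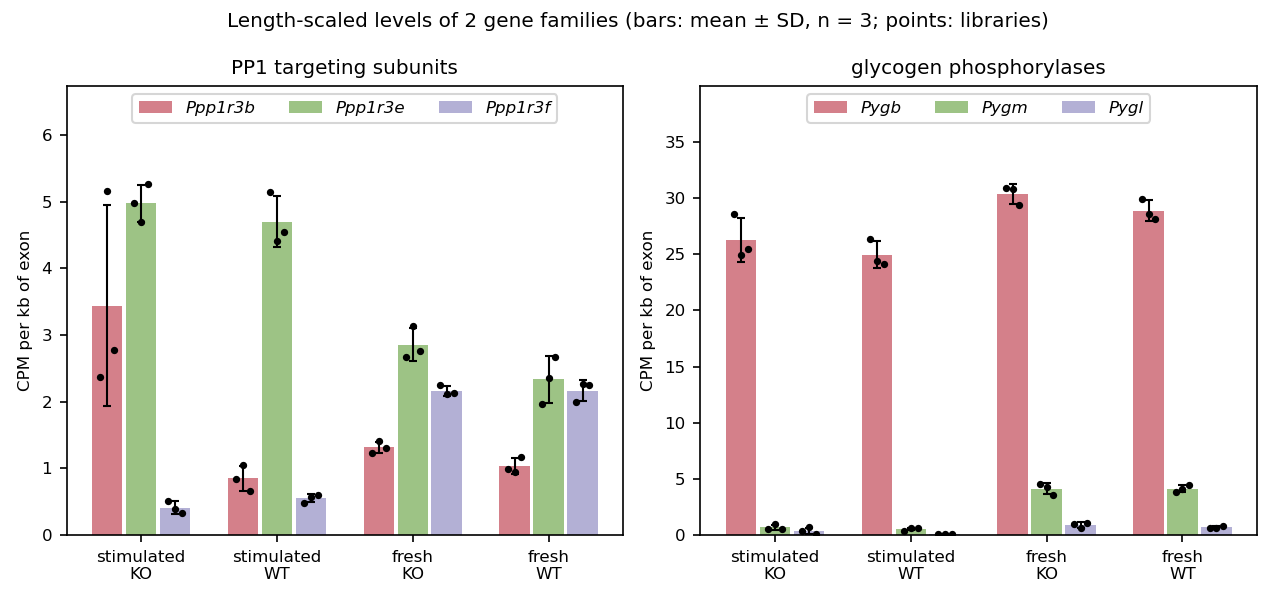
CPM per kb of exon of 3 PP1 targeting subunits (left) and 3 glycogen phosphorylases (right) in stimulated KO, stimulated WT, fresh KO and fresh WT cells. Bars are mean ± SD (n = 3), points are libraries and both axes start at 0. Ppp1r3b exceeds Ppp1r3f in the stimulated groups, and Pygb exceeds Pygm and Pygl in all 4 groups.

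Among the synthesis enzymes, Gys1 changed most with stimulation. Gys1, glycogen synthase, lies at chr7:45434844-45456619 on the plus strand. In stimulated cells Gys1 stood at 114.4, 140.3 and 115.4 CPM in KO libraries, against 86.6, 127 and 114.2 CPM in WT libraries. In fresh cells Gys1 stood at 18.5, 16.4 and 16.5 CPM in KO libraries, against 13.9, 15.4 and 14.7 CPM in WT libraries. Every stimulated library lay several-fold above every fresh one, though stimulated and fresh libraries also did not overlap for 84.6% of all genes in KO and 84.1% in WT cells. For Gys1 the genotypes overlapped in stimulated cells but not in fresh cells. Gys1 rose with stimulation 7.20-fold in KO cells (log2 fold change 2.85, SE 0.13, edgeR adjusted p = 4.82e-12) and 7.44-fold in WT cells (log2 fold change 2.90, SE 0.13, edgeR adjusted p = 6.9e-12). KO over WT did not pass the test in fresh cells (log2 fold change 0.22, SE 0.14, edgeR adjusted p = 0.51) and was 0.17 (SE 0.11) in stimulated cells. Of its exon bases, 8.43% overlap Ruvbl2 on the opposite strand, and the strand setting of the counting is not given, so reads there cannot be told apart.

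Gyg, glycogenin, lies at chr3:20122084-20155317 on the minus strand and rose less. In stimulated cells Gyg stood at 37.4, 35.8 and 33.6 CPM in KO libraries, against 39.3, 35.2 and 38.5 CPM in WT libraries. In fresh cells Gyg stood at 26.0, 25.1 and 29.3 CPM in KO libraries, against 29.5, 27.3 and 27.0 CPM in WT libraries. Stimulated libraries lay above fresh ones in both genotypes, and the genotypes overlapped in both states. The log2 fold change with stimulation was 0.41 in KO cells (SE 0.08, edgeR adjusted p = 9.72e-05) and 0.43 in WT cells (SE 0.08, edgeR adjusted p = 6.92e-05). KO over WT was -0.06 in fresh cells (SE 0.08, edgeR adjusted p = 0.8) and -0.08 in stimulated cells (SE 0.07).

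Gbe1, the branching enzyme, lies at chr16:70313949-70569716 on the plus strand and was lower after stimulation in WT cells. In stimulated cells Gbe1 stood at 15.1, 20.03 and 14.7 CPM in KO libraries, against 15.3, 13.3 and 14.1 CPM in WT libraries. In fresh cells Gbe1 stood at 17.9, 17.1 and 17.2 CPM in KO libraries, against 18.5, 17.9 and 18.2 CPM in WT libraries. Stimulated KO replicate 2, the library highest in Ppp1r3b, was also highest in Gbe1. Gbe1 fell by 0.36 on the log2 scale in WT cells (SE 0.11, edgeR adjusted p = 0.00666). In KO cells the log2 fold change was -0.07 (SE 0.11, edgeR adjusted p = 0.536), and -0.21 without stimulated KO replicate 2 (edgeR adjusted p = 0.0295). KO over WT was -0.06 in fresh cells (SE 0.11, edgeR adjusted p = 0.858) and 0.22 in stimulated cells (SE 0.11).

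Ugp2, which makes UDP-glucose, lies at chr11:21321138-21371201 on the minus strand and was called in no comparison in which it was tested. In stimulated cells Ugp2 stood at 35.0, 36.0 and 31.9 CPM in KO libraries, against 31.7, 28.9 and 30.4 CPM in WT libraries. In fresh cells Ugp2 stood at 30.6, 30.7 and 32.1 CPM in KO libraries, against 30.5, 34.3 and 33.9 CPM in WT libraries. Neither change with stimulation passed the test. The log2 fold change was 0.14 in KO cells (SE 0.07, edgeR adjusted p = 0.0691) and -0.12 in WT cells (SE 0.07, edgeR adjusted p = 0.127). Without stimulated KO replicate 3 the KO value was 0.19, with edgeR adjusted p = 0.0239. KO over WT was -0.08 in fresh cells (SE 0.07, edgeR adjusted p = 0.663) and 0.18 in stimulated cells (SE 0.07).

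On the breakdown side, Pygb, the brain form of glycogen phosphorylase, lies at chr2:150786735-150831758 on the plus strand. In stimulated cells Pygb stood at 111.6, 97.4 and 99.5 CPM in KO libraries, against 102.9, 95.3 and 94.3 CPM in WT libraries. In fresh cells Pygb stood at 120.7, 120.5 and 114.9 CPM in KO libraries, against 116.9, 111.8 and 110.1 CPM in WT libraries. Stimulated libraries lay below fresh ones of the same genotype, by a small step. The log2 fold change was -0.21 in KO cells (SE 0.06, edgeR adjusted p = 0.00262) and -0.21 in WT cells (SE 0.06, edgeR adjusted p = 0.00232). KO over WT was 0.07 in fresh cells (SE 0.06, edgeR adjusted p = 0.614) and 0.08 in stimulated cells (SE 0.06).

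Pygl, the liver form, lies at chr12:70190811-70231488 on the minus strand and was the lowest of the 7. In stimulated cells Pygl stood at 1.12, 2.25 and 0.430 CPM in KO libraries, against 0.251, 0.433 and 0.333 CPM in WT libraries. In fresh cells Pygl stood at 3.27, 1.95 and 3.5 CPM in KO libraries, against 2.13, 2.18 and 2.60 CPM in WT libraries. All stimulated WT libraries lay below all fresh WT libraries, while stimulated KO replicate 2 reached the range of fresh KO libraries. Pygl passed the filter on low counts through the fresh groups, since 2 of 3 stimulated KO libraries and 0 of 3 stimulated WT libraries reached its threshold of 0.486 CPM. Its change with stimulation is therefore given as a description with no test, at a log2 fold change of -1.23 in KO cells (SE 0.37) and -2.73 in WT cells (SE 0.49). Without stimulated KO replicate 2 the KO log2 fold change was -1.86. KO over WT was 0.34 in fresh cells (SE 0.36, edgeR adjusted p = 0.737) and 1.84 in stimulated cells (SE 0.52), or 1.20 without that library.

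Markers of other cells moved with Pygl and the other genes that fell. The summed dendritic cell markers, given with the library checks, were lower in every stimulated than in every fresh library, and 5 of 6 were called lower in each genotype. Zbtb46, the remaining marker, was called higher with stimulation in KO cells (log2 fold change 1.15, edgeR adjusted p = 3.6e-05) and in stimulated KO over WT (0.76, edgeR adjusted p = 0.0169). The 7 of 8 myeloid markers in the tables summed to 3.71 to 4.05 CPM in stimulated KO, 4.09 to 5.28 in stimulated WT, 34.3 to 58.0 in fresh KO and 39.9 to 61.3 in fresh WT libraries. The 4 B cell markers summed to 12.3 to 15.4, 13.7 to 17.8, 72.1 to 102.7 and 70.2 to 86.7 CPM in the same groups. Mpo was at 0 in all stimulated WT libraries, and no other dendritic, myeloid or B cell marker was at 0 throughout a group. All 4 B cell markers and all 5 CD8 T cell markers were called lower in each genotype, where 42.2% of all genes were called lower in KO and 41.4% in WT cells. Both NK cell markers, 4 of the 6 tested myeloid markers and 2 of the dendritic cell markers were under the threshold of the filter in every stimulated library. They passed it through fresh libraries alone, so their calls as lower are no support. Of those left, 2 of 2 myeloid and 3 of 4 dendritic cell markers were called lower in each genotype. Erythroid markers summed to at most 1.94 CPM in any library. The part of these cells in the falls was not tested.

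Read together, KO over WT in fresh cells was called for 0 of the 7 members, against 1.2% of all genes tested. DESeq2 and limma-voom called 0 as well, and 0 members had an unadjusted p under 0.05. With stimulation, leaving out Ppp1r3b and Pygl, 2 of 5 members were called higher and 1 lower in KO cells, and 2 were called higher and 2 lower in WT cells. Of all genes, 41.7% were called higher and 42.2% lower with stimulation in KO cells, and 40.8% and 41.4% in WT cells, so most genes changed (83.9% in KO and 82.3% in WT cells) and nothing is read from the members' counts. The median log2 fold change of the 5 was 0.14 in KO cells and -0.12 in WT cells, against -0.02 and -0.03 over all genes. In stimulated cells KO over WT of the 7 had a median of 0.18. That median holds the value for which Ppp1r3b was chosen, so it is a description from which nothing is read. Over all genes the median was -0.01, with 9.3% of genes called and 27.4% with groups that did not overlap.

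Per kb of exon, the order of the members also differed between states. In fresh cells Pygb was first, at 30.4 ± 0.846 CPM per kb in KO and 28.9 ± 0.905 in WT, followed by Gyg and Ugp2. Gys1 and Gbe1 came next, at 4.66 ± 0.319 and 4.07 ± 0.0964 CPM per kb in fresh KO and 3.98 ± 0.218 and 4.26 ± 0.0690 in fresh WT, where their libraries overlapped. In stimulated cells Gys1 had the highest mean, at 33.6 ± 3.99 CPM per kb in KO, with Pygb at 26.3 ± 1.96. In stimulated WT their libraries overlapped. Ppp1r3b came before Pygl at the low end of all 4 groups, at 3.44 ± 1.51 CPM per kb in stimulated KO, 0.851 ± 0.191 in stimulated WT, 1.32 ± 0.0852 in fresh KO and 1.04 ± 0.119 in fresh WT. A shorter or longer true transcript would shift these levels but not the comparisons of a gene with itself.

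Among the phosphorylases per kb, Pygb held 96.1% of the summed level in stimulated KO, 97.5% in stimulated WT, 85.9% in fresh KO and 85.7% in fresh WT (means of 3 libraries). Pygm held 2.52%, 2.07%, 11.7% and 12.3% in the same order of groups, and Pygl 1.39%, 0.399%, 2.47% and 2.04%.

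The other glycogen genes were a list of 25, of which 17 passed the filter. Gys2, the liver synthase, had 0 counts, with the same limit as Ppp1r3a, and Phkg1, Epm2a and Stbd1 had 48, 40 and 74 counts in all. Phka1 passed it through the fresh groups alone and is left out of the counts with stimulation. Of the 16 left, 4 were called higher and 7 lower in KO cells, against 41.7% and 42.2% of all genes. In WT cells 2 were called higher and 8 lower, against 40.8% and 41.4% of all genes. The shares called lower are near those of all genes, while the shares called higher are under those of all genes in both genotypes. Whether the list differs from all genes was not tested. The 7 lower in KO cells were also called lower in WT cells. The median log2 fold change of the 16 was -0.13 in KO cells and -0.16 in WT cells, against -0.02 and -0.03 over all genes.

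Of 8 breakdown genes listed, 7 were tested. Leaving out Phka1, the same 5 of 6 fell in both genotypes, where 42.2% of all genes in KO and 41.4% in WT cells were called lower. The markers of other cells given beside Pygl were lower in the same libraries. Pygm, the muscle phosphorylase, stood at 1.55, 2.72 and 1.64 CPM in stimulated KO libraries, against 13.0, 12.4 and 10.2 CPM in fresh KO libraries. It stood at 1.10, 1.73 and 1.70 CPM in stimulated WT libraries, against 11.1, 11.7 and 12.9 CPM in fresh WT libraries. No stimulated library came near a fresh one. The log2 fold change of Pygm was -2.62 in KO cells (SE 0.19, edgeR adjusted p = 2.13e-09) and -2.96 in WT cells (SE 0.20, edgeR adjusted p = 9.66e-10). Phkg2, a catalytic subunit of phosphorylase kinase, fell by 0.79 on the log2 scale in KO cells (edgeR adjusted p = 1.18e-07) and by 0.72 in WT cells (edgeR adjusted p = 3.99e-07). Phka1, a regulatory subunit of that kinase, had 3, 1 and 3 counts in stimulated KO libraries, against 28, 25 and 27 in fresh KO libraries. It had 5, 6 and 11 counts in stimulated WT libraries, against 32, 29 and 17 in fresh WT libraries. None of its stimulated libraries reached the threshold of the filter, so its change is a description with no test.

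Phka2 and Phkb, regulatory subunits of the same kinase, also fell and are named after their values were seen. For Phka2 the log2 fold change was -0.22 in KO cells (edgeR adjusted p = 0.0228) and -0.25 in WT cells (edgeR adjusted p = 0.0105). For Phkb it was -0.39 in KO cells (edgeR adjusted p = 3.57e-05) and -0.23 in WT cells (edgeR adjusted p = 0.00337). Phka2 lost its call in KO cells in 4 of 12 alternatives and in WT cells without stimulated WT replicate 2. Gaa, the lysosomal glucosidase, did not pass the test, with a log2 fold change of -0.13 in KO cells (edgeR adjusted p = 0.149) and -0.10 in WT cells (edgeR adjusted p = 0.258).

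Of the regulators, Gsk3b, a kinase that inhibits glycogen synthase, fell by 0.46 on the log2 scale in KO cells (SE 0.06, edgeR adjusted p = 1.26e-06) and by 0.53 in WT cells (SE 0.06, edgeR adjusted p = 2.96e-07). Its relative Gsk3a was called in neither genotype. Of the 3 catalytic subunits of protein phosphatase 1, 1 was called higher in KO cells (Ppp1cc, log2 fold change 0.22, edgeR adjusted p = 0.000414) and 0 in WT cells. The difference of the genotype effects was called for 0 of the 17, against 2.26% of all genes. An unadjusted edgeR p under 0.05 was found for 3, and 0 were called by DESeq2 or limma-voom. Phka1, under the threshold of the filter in every stimulated library, is among the 17.

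**Figure D3:**
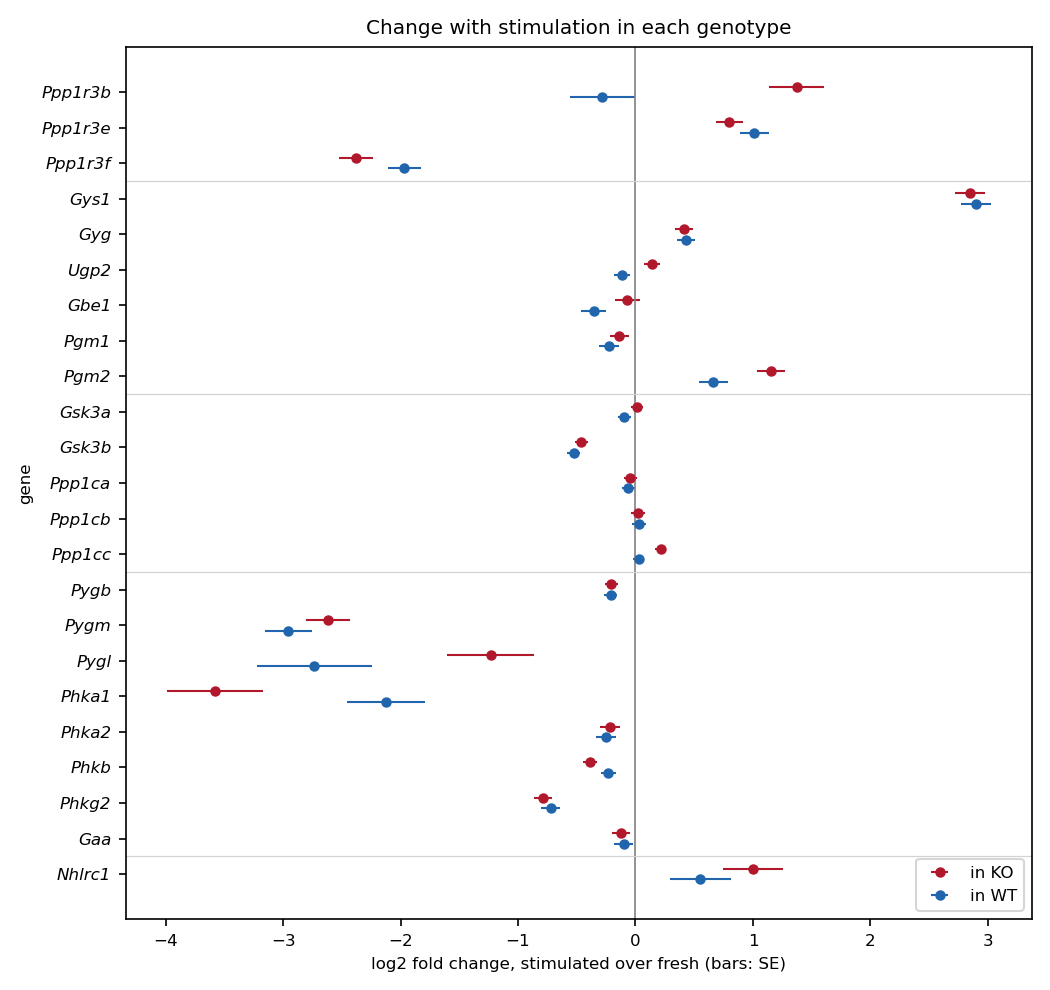
Log2 fold change, stimulated over fresh (horizontal axis), of glycogen genes that passed the filter, in KO (red) and WT (blue) cells. Points are estimates and bars are SE. Gys1 lies near 2.85 in KO and 2.90 in WT, Ppp1r3b lies at 1.37 in KO and -0.28 in WT, and Pygm, Pygl, Phka1 and Ppp1r3f lie furthest to the left.

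In stimulated cells KO over WT was called for 1 of the 17 other genes, against 9.3% of all genes. The 17 include Phka1, which was under the threshold of the filter in every stimulated library. It was Pgm2, labelled as a phosphoglucomutase, an enzyme that interconverts glucose phosphates on the way to and from glycogen. Pgm2 stood at 79.1, 109.4 and 84.2 CPM in stimulated KO libraries, against 67.4, 64.1 and 50.6 CPM in stimulated WT libraries. The groups did not overlap, which was also so for 27.4% of all genes, and stimulated KO replicate 2 was again the highest. The log2 fold change was 0.58 (SE 0.12, edgeR adjusted p = 0.00682). Pgm2 also rose with stimulation, by 1.16 on the log2 scale in KO cells (SE 0.12, edgeR adjusted p = 2.18e-07) and 0.66 in WT cells (SE 0.12, edgeR adjusted p = 0.000125). The mouse symbols Pgm1 and Pgm2 were exchanged between annotation releases, so which of the 2 enzymes a symbol means here cannot be told from the tables. Without stimulated KO replicate 1, Ppp1r3f (log2 fold change -0.63, edgeR adjusted p = 0.0415) was called as well. In fresh cells 0 of the 17 were called, with 3 at an unadjusted p under 0.05 and 0 called by DESeq2 or limma-voom.

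**Figure D4:**
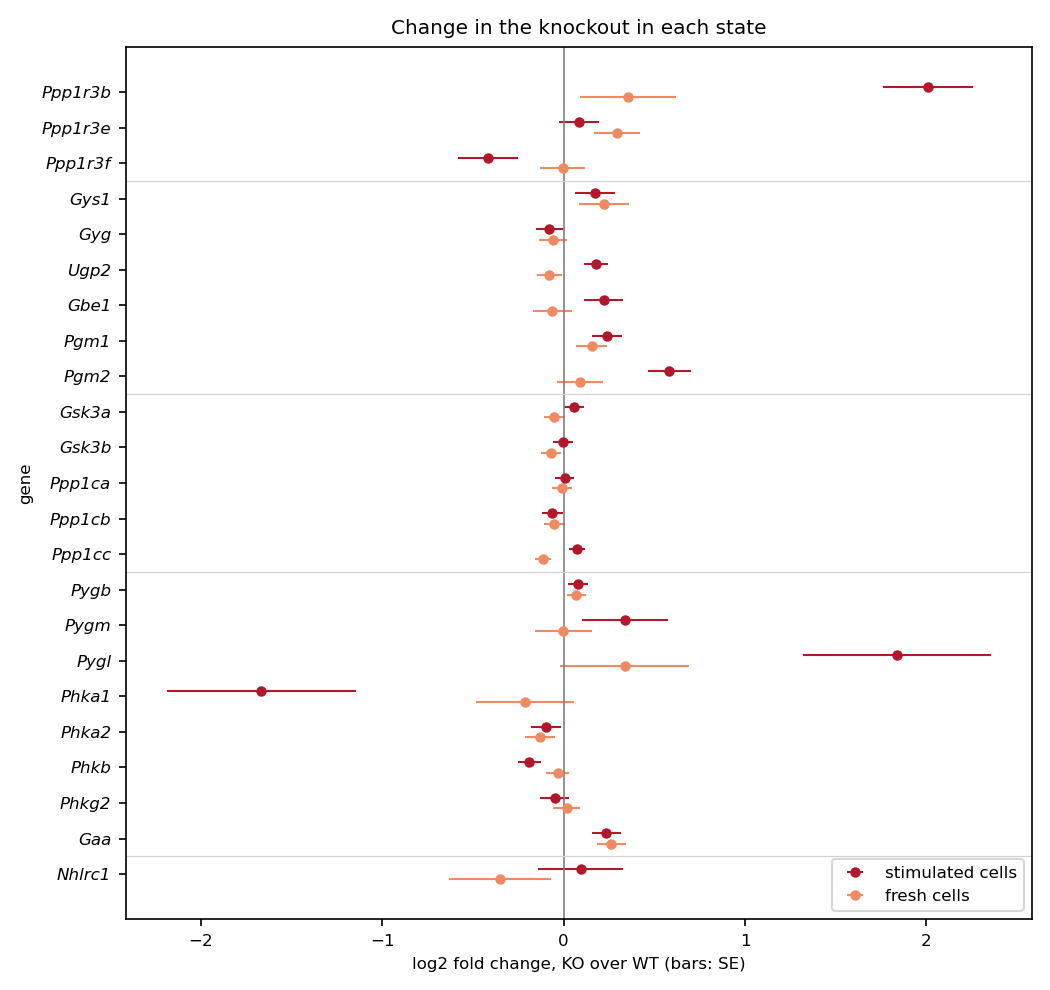
Log2 fold change, KO over WT (horizontal axis), of the same genes in stimulated (red) and fresh (orange) cells. Points are estimates and bars are SE. Ppp1r3b stands at 2.01 in stimulated cells, for which it was chosen, and at 0.35 in fresh cells. Pgm2, Pygl and Phka1 are the others furthest from 0. Phka1 was under the threshold of the filter in every stimulated library, and Pygl in every stimulated WT library.

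Genes whose pattern was most like that of Ppp1r3b were found among 9467 genes over the 12 libraries, as a description. By the root mean square difference of centred log2 CPM they were Slc2a3 (0.343), Ier3 (0.357), Plcxd1 (0.364), Ndrg2 (0.413) and Anxa2 (0.439). Slc2a3 encodes the glucose transporter GLUT3. It stood at 126.5, 232.4 and 113 CPM in stimulated KO libraries, against 79.2, 75.9 and 52.8 CPM in stimulated WT libraries. In fresh cells Slc2a3 stood at 98.7, 103.4 and 94.8 CPM in KO libraries, against 79.0, 74.6 and 79.2 CPM in WT libraries. Like Ppp1r3b, it was highest in stimulated KO replicate 2 and lowest in stimulated WT replicate 3.

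By the correlation of deviations from the group means, which leaves out differences between groups, the nearest genes were Hilpda (r = 0.954), Enpp1 (0.939), Slc37a4 (0.936), Rcor2 (0.925) and Ero1l (0.923), each over 12 libraries. Slc37a4 encodes the transporter that carries glucose 6-phosphate into the endoplasmic reticulum, where liver cells turn the product of glycogen breakdown into glucose. Hilpda encodes a lipid droplet protein induced by low oxygen. It stood at 34.6, 55.1 and 36.0 CPM in stimulated KO libraries, against 21.6, 23.4 and 17.7 CPM in stimulated WT libraries. Of the members, Gbe1 had r = 0.671, Gys1 0.455, Ugp2 0.195, Gyg -0.264 and Pygb -0.503. These points share their libraries and hence depth, and stimulated KO replicate 2 is far from the others in many of them.

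A list of 18 hypoxia-induced genes, Ero1l among them, is given beside Ppp1r3b. It was chosen because Egln3 and Bnip3, which low oxygen induces, varied between these libraries in earlier results. The 18 summed to 1638, 2507 and 1670 CPM in stimulated KO libraries, against 1275, 1418 and 1108 CPM in stimulated WT libraries. They summed to 971.1, 914.1 and 902.3 CPM in fresh KO libraries, against 989.4, 975.3 and 938.5 CPM in fresh WT libraries. Within each stimulated group, the library with the highest sum was also the one with the highest Ppp1r3b, which was not so in the fresh groups. Egln3, a prolyl hydroxylase that marks the hypoxia factor for decay, stood at 98.2, 228.2 and 92.0 CPM in stimulated KO libraries, against 48.0, 65.4 and 21.4 CPM in stimulated WT libraries.

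In stimulated cells KO over WT was called higher for 14 of the 18 and lower for 0, where 5.08% of all genes were called higher. The median log2 fold change of the list was 0.51, against -0.01 over all genes. Leaving out Egln3 and Bnip3, 12 of 16 were higher. Adm is counted in the 14 and in the 12. It reached the filter threshold of 0.486 CPM in stimulated KO libraries alone (1.20, 0.837 and 1.38 CPM), so its call is no support. Car9, which was not called, was under that threshold in every stimulated library. Over the whole list, the count was 9 of 18 without stimulated KO replicate 2 and 7 of 18 without stimulated WT replicate 3. It was 8 of 17 when the stimulated groups were fitted alone. Leaving out Egln3 and Bnip3, these counts were 8 of 16, 5 of 16 and 7 of 15, in the same order. In fresh cells 0 of the 18 were called, with 3 at an unadjusted p under 0.05, 1 by DESeq2 and 0 by limma-voom. The part of low oxygen in the Ppp1r3b values was not tested.

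**Figure D5:**
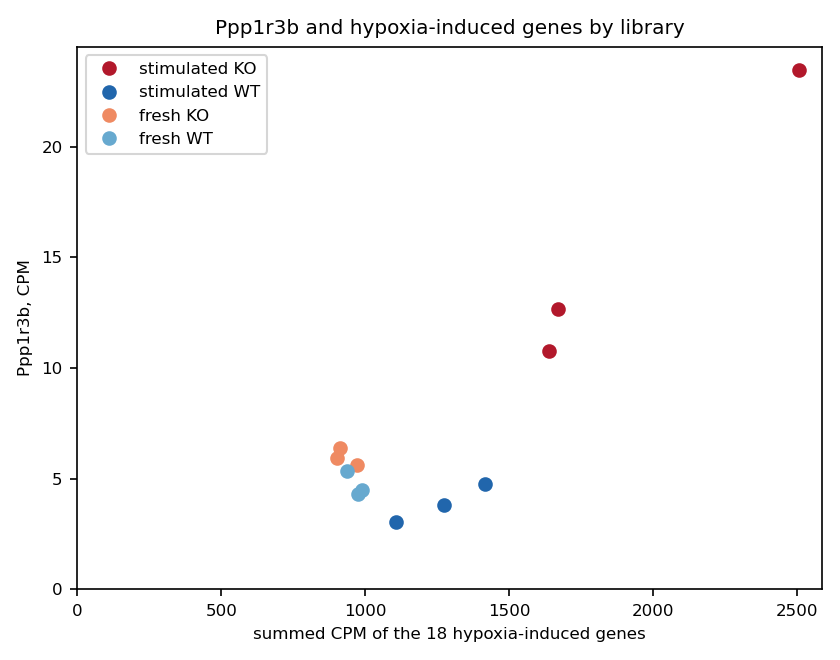
Ppp1r3b in CPM (vertical axis) against the summed CPM of 18 hypoxia-induced genes (horizontal axis) in 12 libraries, coloured by group. Both axes start at 0. Stimulated KO replicate 2 lies at 2507 and 23.5 CPM, and fresh libraries cluster at 902.3 to 989.4 CPM.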

How the data were processed

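The authors deposited raw read counts per gene, whole numbers with no normalization, for each of 12 libraries. The build was mm10 and the tools were HTSeq, TopHat, TopHat2 and DESeq2, per the submitters' processing notes. Their versions, the annotation and the strand setting were not given in the sources used here. The 5 HTSeq summary lines of each file (5.22% to 6.43% of its total) were left out.

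From the deposited counts, genes were filtered with filterByExpr (12759 kept), scaled by TMM (factors 0.988 to 1.01) and fitted in R 4.3.3 with edgeR 4.0.16, by a quasi-likelihood model with 1 coefficient per group and 8 residual degrees of freedom. Tests were two-sided, with Benjamini-Hochberg adjustment over all genes tested, called under 0.05. SE is the absolute log2 fold change over the square root of F. Levels are TMM-scaled CPM. Alternatives were DESeq2 1.42.0, limma-voom (limma 3.58.1), RLE size factors, no filter, the compared groups alone, each library left out, and the libraries with Y-linked reads left out. Fits were tested on simulated counts in which 200 genes were changed in stimulated KO and the others had a common mean in all groups. Most real genes changed with stimulation, so that simulation does not stand for the stimulation comparisons. Counts of replicates differed by more than sampling noise in every pair (chi-square per degree of freedom 4.26 to 18.6), so none were merged. The labels give no batch.

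The members and lists were chosen with earlier results of these data known. Named genes are the 7 members, the targeting subunits, up to 6 called genes of the other glycogen list per comparison by lowest adjusted p, Otub1, and 5 genes most like Ppp1r3b by each of 2 measures among genes with an average log2 CPM (prior count 2) of at least 2, without predicted genes. Of the other glycogen list, 1 gene is counted but not reported on its own here. Sequences are from RefSeq, where 6 of the 7 members matched. Ppp1r3b did not, so no window is shown for it.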

Additional observations from a re-analysis of the deposited data

Results flagged for a closer look

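Among the genes listed or named here other than the 7 members, the effect of the knockout differed between stimulated and fresh cells for 6. The test was that of the difference of the genotype effects in the edgeR model, which called 2.26% of all genes (288 of 12759). The genes looked at include Otub1, the knocked-out gene, and genes picked from these same libraries. The count of 6 is therefore not read against that share. Otub1 was lower by a further 1.47 on the log2 scale in stimulated cells: the difference was -1.47 (SE 0.20, edgeR adjusted p = 0.00329), with KO over WT at -2.66 in stimulated and -1.19 in fresh cells. Hilpda, the gene nearest to Ppp1r3b in its deviations between libraries, had a difference of 1.04 (SE 0.22, edgeR adjusted p = 0.0244). In stimulated cells its KO over WT log2 fold change was 1.00, and in fresh cells it was -0.04. Ankrd37, a hypoxia-induced gene, had a difference of 0.97 (SE 0.21, edgeR adjusted p = 0.0254). Egln1, a prolyl hydroxylase that senses oxygen, had a difference of 0.64 (SE 0.14, edgeR adjusted p = 0.0299). Ankrd37 and Egln1 were the 2 of the 18 hypoxia-induced genes called in this difference, against 2.26% of all genes. Of the CD8 T cell markers, Cd3e had a difference of -0.27 (SE 0.07, edgeR adjusted p = 0.0484), with KO over WT at -0.31 in stimulated and -0.04 in fresh cells. Cd3g had a difference of -0.40 (SE 0.08, edgeR adjusted p = 0.0198), with KO over WT at -0.49 in stimulated and -0.09 in fresh cells. None of the 18 hypoxia-induced genes was called when the 3 libraries with Y-linked reads were left out, or without any 1 of 4 single libraries (fresh KO replicate 1, fresh WT replicate 2 or 3, stimulated WT replicate 3). The count was 6 with no filter on low counts. Hilpda was picked for its likeness to Ppp1r3b from the same libraries.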

How the results depend on the processing

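Directions and calls of the members tested with stimulation held in all 12 alternatives for Gys1, Gyg and Pygb, and for Gbe1 in WT cells. For Gbe1 in KO cells the log2 fold change ran from -0.21 to 0.01 when single libraries were left out, with 0.00 without stimulated KO replicate 1 and 0.012 without stimulated KO replicate 3. The difference of the genotype effects on Ppp1r3b ran from 1.25 (without stimulated KO replicate 2) to 1.87. The number of other glycogen genes called for KO over WT in stimulated cells was 1, and ran from 1 to 3 when single libraries were left out. It was 3 without stimulated KO replicate 1 and 2 without stimulated KO replicate 2, where Gaa was added. The Pgm1 fall with stimulation in WT cells was lost with no filter and without fresh WT replicate 2 or stimulated WT replicate 2. The number of all genes called for KO over WT was 153 in fresh cells (29 without fresh WT replicate 2, 330 with DESeq2) and 1187 in stimulated cells (514 without stimulated WT replicate 3). For the difference it was 288, with 554 by DESeq2 and 122 when the 3 Y-linked libraries were left out. Causes were not tested. The fit of the stimulated groups alone gave no value for Pygl, which its filter removed. With counts as low as those of Pygl and Phka1, fold changes depend on few reads. No paired analysis was possible because the numbers in the labels name samples and are not shared between groups.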
